A study of Mus musculus with 8 samples.

Results

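Potassium channel subunits were described in left ventricular muscle of 8 male mice, measured on 1 expression array each. The members are the rows of the deposited table whose platform gene symbol begins with Kcn, which gave 90 rows for 90 symbols out of 22206 rows in all. They comprise pore-forming, beta and interacting subunits, together with Kcnrg, a regulator of channel assembly, and Kcnq1ot1, a long non-coding RNA transcribed antisense to Kcnq1 that is no channel subunit. The 4 miR-100 overexpressing mice carried a cardiac-specific overexpression of microRNA-100, and the 4 wild type mice did not. Both groups were of strain C57/BL6J, 8 weeks old and untreated. The sources used here do not give the promoter or line behind the overexpression, the litters or the time of day of collection.

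The overexpressed microRNA and its family are shown because their shared seed (bases 2 to 8, in capitals, 5′ to 3′) is the stretch that pairs with target messages. The labels name microRNA-100 without an arm, and the 5p arm is printed with the related miR-99 sequences from RefSeq, build GRCm38.p6.
mmu-miR-100-5p: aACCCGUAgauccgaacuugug
mmu-miR-99a-5p: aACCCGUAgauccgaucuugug
mmu-miR-99b-5p: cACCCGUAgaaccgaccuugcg
These lie at chr9:41531437-41531458, chr16:77598940-77598961 and chr17:17830194-17830215, all on the plus strand. The 3 mature sequences share the seed ACCCGUA, whose perfect partner in a message reads UACGGGU. Counted from the 5′ end of miR-100-5p, miR-99a-5p differs by A16U alone, and miR-99b-5p differs by A1C, U11A, A16C and U21C. Target sites in the messages of the channel genes were not examined here, and miR-100 itself has no row that could show its level.

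Potassium channels let potassium leave heart muscle cells and so end the action potential and hold the resting potential. In the mouse ventricle the fast transient outward current and the slowly inactivating Kv currents carry most of the repolarization, whereas the delayed rectifiers built on Kcnh2 and Kcnq1 dominate in human ventricle. Pore subunits set which current flows, and beta or interacting subunits change its gating and its delivery to the membrane.

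Correlations between arrays over all rows lay between 0.988 and 0.993, and the array medians lay between 5.70 and 5.74 on the log2 scale. On the first principal component of all rows miR-100 replicate 2 scored 30.8, where the remaining miR-100 hearts scored 8.96 to 13.5. On the opposite side wild type replicate 2 scored -38.2, where the remaining wild type hearts scored -13.0 to -3.49. In the limma fit described below, without miR-100 replicate 2, 0 Kcn rows passed and 9 had an unadjusted p under 0.05. Without wild type replicate 2 these counts were 0 and 10. Among all rows the number that passed was 31 with every array kept. It was 25 without miR-100 replicate 2 and 15 without wild type replicate 2. The share of all rows at an unadjusted p under 0.05 is not given for those fits, so the member counts have no matching background. All 8 ventricular cardiomyocyte markers lay above the median of row means, at percentile 72.8 or higher, and so did all 7 endothelial, all 5 measured fibroblast and all 6 measured macrophage markers, while 0 of 6 measured neuronal and 2 of 5 measured sinoatrial node markers did. In bulk tissue, fewer cells of a type and less RNA per cell cannot be told apart.

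Of the 90 rows, 23 lay above the median of all 22206 row means, which was 5.70 over the 8 arrays. This is 25.6% of the Kcn rows, whereas 51.1% of all rows with a symbol lie there. The 23 are, from the highest row mean down, Kcnip2, Kcnj5, Kcnh2, Kcnj3, Kcnk3, Kcnj11, Kcnn2, Kcnq1, Kcnj12, Kcnj8, Kcnj2, Kcna5, Kcnd2, Kcnt2, Kcnn1, Kcnmb1, Kcnq1ot1, Kcnd3, Kcnip3, Kcne1, Kcnk6, Kcnmb3 and Kcnj14. A row's signal also depends on its probes, so this is an order of rows on the array and not of transcript amounts. Kcnj14 was the last member above the median, with a mean of 6.04, and Kcna7 the first below it, with 5.53, so the median falls in a gap between members. The count was 24 over the miR-100 arrays alone and 23 over the wild type arrays alone.

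**Figure D1:**
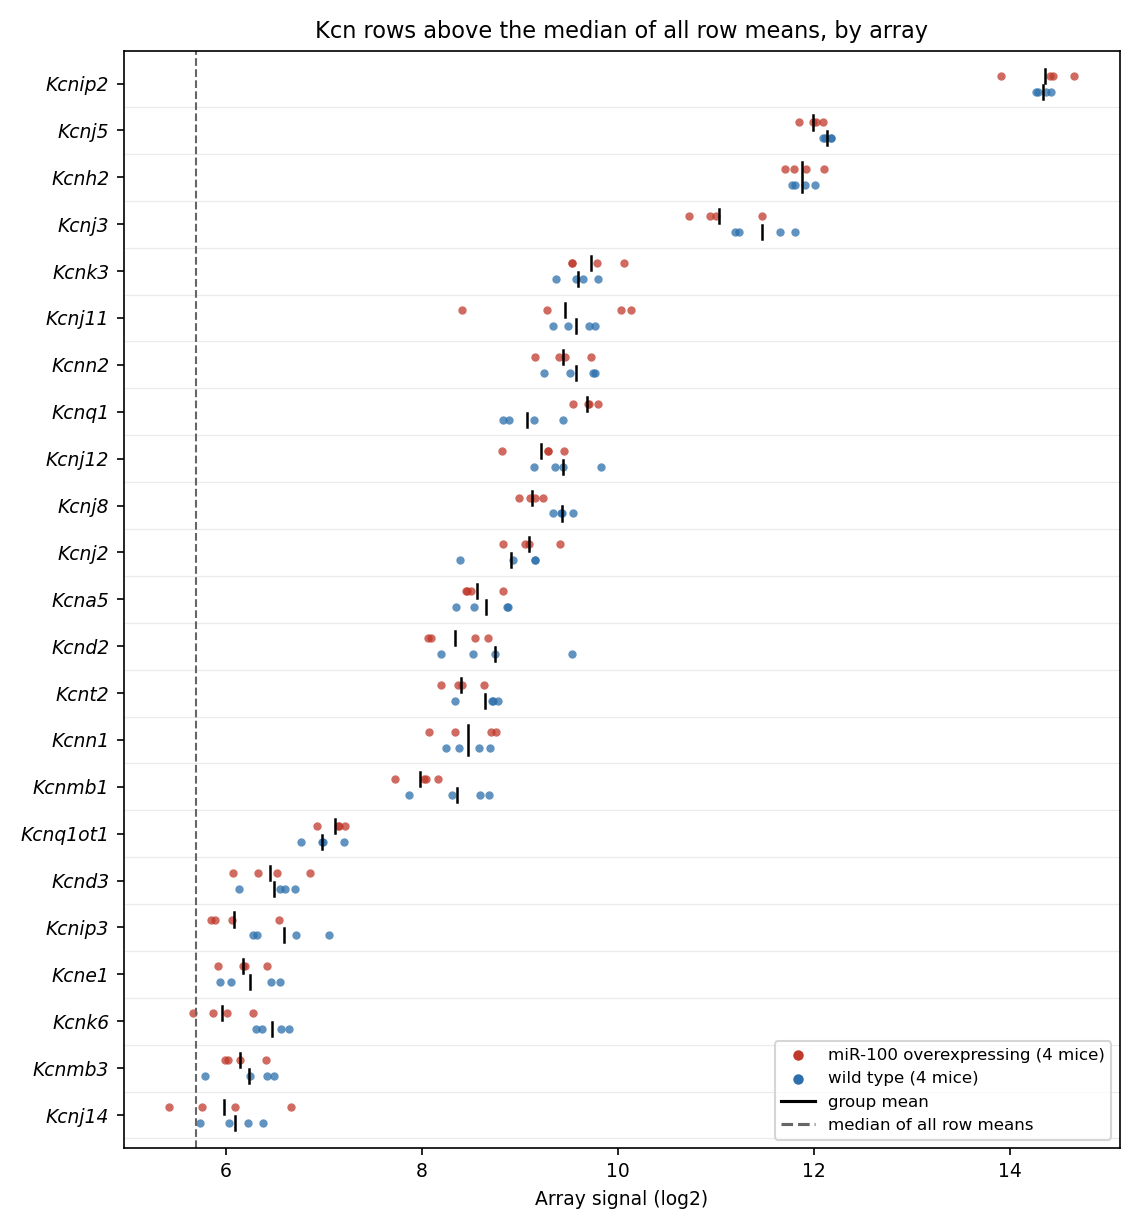
Array signal (log2) of the 23 Kcn rows above the median of all row means, which is the dashed line at 5.70. Each point is 1 mouse, with the 4 miR-100 overexpressing mice above the 4 wild type mice in each row and black ticks at the group means. Kcnip2 stands alone near 14, and the groups are set apart without overlap only in Kcnq1, Kcnj8 and Kcnk6.

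The 23 rows were unevenly spread over the families. Of 15 inward rectifier rows (Kcnj) 7 lay above the median, the largest number of any family, along with 2 of 3 Kv4 pore rows, 2 of 4 SK and IK rows (Kcnn), 2 of 4 BK beta rows (Kcnmb) and 2 of 4 Kv channel-interacting rows (Kcnip). Of 8 Kv1 rows only Kcna5 was there, of 8 EAG and ERG rows (Kcnh) only Kcnh2, of 3 Kv7 rows only Kcnq1 and of 5 Kcne rows only Kcne1. Of 14 two-pore-domain rows (Kcnk) Kcnk3 and Kcnk6 were there. Below the median lay all 10 rows of the electrically silent Kv subunits (Kcnf, Kcng, Kcns and Kcnv), all 3 Kv beta rows (Kcnab) and all 3 Kv3 rows (Kcnc). The silent rows reached at most 5.35, and Kcnb2, a Kv2 pore, had a mean of 3.82. The dimmest rows are near background, so a low value does not show that the subunit is absent.

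**Figure D2:**
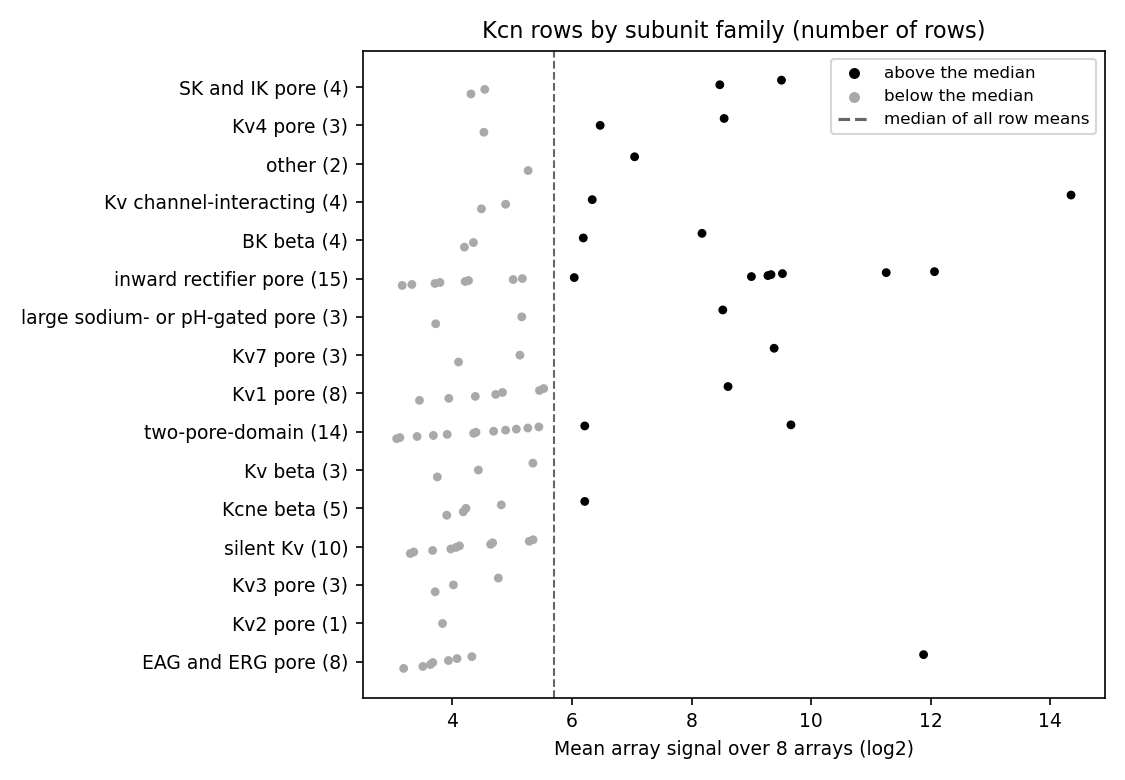
Mean signal over the 8 arrays (log2) of each Kcn row, grouped by subunit family with the number of rows in brackets. Black points lie above the median of all row means (dashed line, 5.70) and grey points below it. Inward rectifier rows make up 7 of the 23 black points, and the 10 silent Kv rows are all grey.

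No Kcn row passed the test between miR-100 overexpressing and wild type hearts. With limma and Benjamini-Hochberg adjustment over all rows, 0 of 90 had an adjusted p under 0.05, against 31 of 22206 rows of the table (0.140%). The count of 31 was 15 without wild type replicate 2 or 3, 12 without miR-100 replicate 1 and 11 without miR-100 replicate 3 or 4, while that of members was 0 in each of these fits. The lowest adjusted p of a member was 0.261, for Kcnq1 (limma). At an unadjusted p under 0.05 there were 11 members, 12.2% of the 90, against 7.73% of all rows. Of these 4 were higher in miR-100 hearts (4.44%, against 3.55% of all rows) and 7 were lower (7.78%, against 4.17%). The count of 11 members was 4, 5 and 6 without miR-100 replicate 1, 3 and 4 in turn and 7 without wild type replicate 1. In those 3 miR-100 fits the count of 7 lower was 1, 4 and 3 in turn, and the count of 4 higher was 3, 1 and 3. Without wild type replicate 1 there were 5 lower and 2 higher. The matching share of all rows is not given for those fits. The 2 groups were fully separated in 5 members (5.56%, against 4.54% of all rows). Of these Kcnq1 and Kcnk7 were higher in miR-100 hearts (2.22%, against 2.21%) and Kcnj8, Kcnk6 and Kcnh1 were lower (3.33%, against 2.33%). Above the median level, 5 of 23 members had an unadjusted p under 0.05 (21.7%, against 9.69% of all rows above the median). Kcnq1 was the 1 that was higher (4.35%, against 5.13%), and Kcnj3, Kcnj8, Kcnip3 and Kcnk6 were lower (17.4%, against 4.56%). In 3 of the 23 the groups did not overlap (13.0%, against 5.92%).

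The intervals show which sizes of change lie outside the 95% limits. In all 90 rows the 95% confidence interval of the log2 difference stayed within -1 and 1. A change of 2-fold or more in array signal therefore lay outside each row's own interval. The same held for 97.0% of all rows. Of the 90 rows 67 lay below the median level, and the dimmest are near background. There, bounds on the signal need not bound the change in transcript amount. In 43 of the 90 rows (47.8%, against 43.6% of all rows) the interval also stayed within -0.5 and 0.5. The median distance from the estimate to its bounds was 0.37. Differences ran from -0.52 in Kcnk6 to 0.61 in Kcnq1, with a median of -0.04, against -0.02 over all rows. In 55 of the 90 the difference was below 0 (61.1%, against 53.0% of all rows). Among the 23 members above the median level 17 were below 0 (73.9%, against 48.6% of all rows above it), with a median of -0.11, against 0.005 for all those rows.

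**Figure D3:**
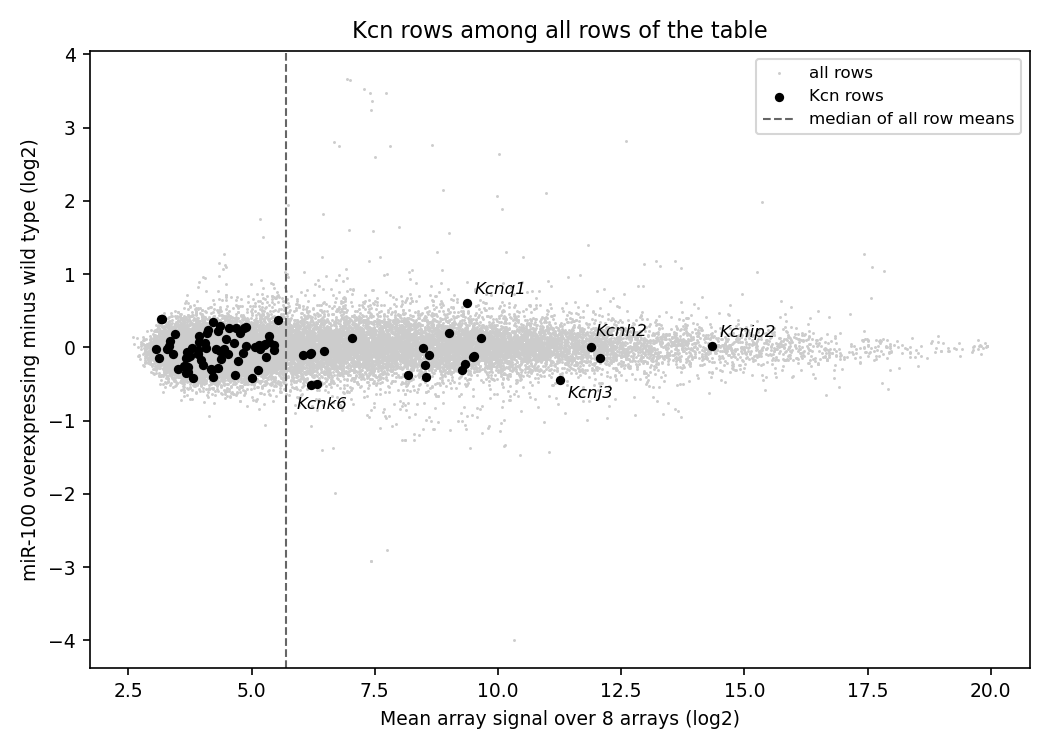
Difference between miR-100 overexpressing and wild type hearts (log2, vertical) against the mean signal over the 8 arrays (log2, horizontal), with all 22206 rows in grey and the 90 Kcn rows in black. The dashed line marks the median of all row means. The Kcn rows lie between -0.52 and 0.61, inside the band of the grey rows, and Kcnip2 and Kcnh2 lie near 0.

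The fast transient outward current is carried by the Kv4 pores Kcnd2 and Kcnd3 with the interacting subunit Kcnip2, without which the mouse ventricle lacks this current. Kcnip2 had 14.66, 14.44, 14.41 and 13.91 in miR-100 replicates 1 to 4 and 14.37, 14.42, 14.27 and 14.29 in wild type replicates 1 to 4 (log2 signal). The miR-100 values spread on both sides of the wild type values, so that the SD was 0.32 against 0.07. The difference was 0.02 (95% interval -0.34 to 0.38, limma). It was -0.08 without miR-100 replicate 1 and 0.17 without miR-100 replicate 4. Kcnd2 had 8.54, 8.06, 8.67 and 8.09 in miR-100 hearts and 9.53, 8.19, 8.52 and 8.75 in wild type hearts. Wild type replicate 1 was the highest of the 8 and the groups overlapped otherwise. Its difference of -0.41 (SE 0.25, limma adjusted p = 0.768) was -0.15 without that array and -0.59 without wild type replicate 2. Kcnd3 averaged 6.45 ± 0.33 in miR-100 and 6.50 ± 0.25 in wild type hearts (SD, n = 4 each) and differed by -0.05. Kcnd1 was dim, with a mean of 4.53.

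Kcna5 carries part of the slowly inactivating Kv current of the mouse ventricle. It had 8.5, 8.46, 8.83 and 8.45 in miR-100 hearts and 8.53, 8.35, 8.87 and 8.88 in wild type hearts. All miR-100 values lay inside the wild type range, with a difference of -0.10 (95% interval -0.46 to 0.26, limma) that was -0.20 with wild type replicate 2 left out and -0.02 with replicate 4 of that group left out. Kcna4, the pore of the slow transient outward current of the septum, had a mean of 5.46, below the median, and a difference of -0.03. Kcna7, a Kv1 pore known from heart and skeletal muscle, lay just under the median. It averaged 5.71 ± 0.22 in miR-100 and 5.34 ± 0.22 in wild type hearts (SD, n = 4 each) and differed by 0.37 (SE 0.17, limma adjusted p = 0.629). The 5 other Kv1 rows had differences between -0.18 and 0.26. The 3 Kv beta rows, whose products bind Kv1 pores in the cytoplasm, had differences between -0.12 and 0.08.

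Kcnq1, the pore of the slow delayed rectifier, had the largest difference of the 90 members. It had 9.71, 9.54, 9.69 and 9.80 in miR-100 hearts and 8.89, 9.44, 8.83 and 9.14 in wild type hearts. All 4 miR-100 values lay above all 4 wild type values, and wild type replicate 2 came nearest to them. The difference was 0.61, a 1.53-fold higher signal (SE 0.16, 95% interval 0.26 to 0.96, unadjusted p = 0.00234, limma adjusted p = 0.261). With wild type replicate 3 left out it was 0.53 and with replicate 2 of that group left out 0.73, and the lowest adjusted p among the fits without an array was 0.151 (limma). Its partner Kcne1, the beta subunit that slows the opening of Kcnq1, had 6.42, 6.17, 5.92 and 6.19 in miR-100 hearts and 6.55, 6.05, 5.94 and 6.46 in wild type hearts. Those values overlapped throughout, with a difference of -0.08. Kcnq1ot1, which overlaps Kcnq1 on the other strand, differed by 0.12 (95% interval -0.19 to 0.44), and by 0.05 without wild type replicate 4. How the probes treat strand is not given in the sources used here. Kcnq3 and Kcnq5, both below the median level, differed by 0.19 and -0.30.

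Kcnh2, the pore of the rapid delayed rectifier, had 12.10, 11.71, 11.92 and 11.80 in miR-100 hearts and 11.78, 11.91, 11.81 and 12.01 in wild type hearts. The miR-100 values enclosed the wild type range, with a difference of 0.005 (95% interval -0.31 to 0.31, limma). Kcne2, a beta subunit that can join Kcnh2, was dim with a mean of 4.82 and a difference of -0.07. Kcne1l, the X-linked Kcne member also called Kcne5, averaged 4.02 ± 0.11 in miR-100 and 4.43 ± 0.33 in wild type hearts (SD, n = 4 each), with a difference of -0.41 (limma adjusted p = 0.606). All 5 Kcne rows had differences below 0, between -0.41 and -0.04. The other 7 Kcnh rows had means of at most 4.32. Among them Kcnh1 and Kcnh6, which encode EAG and ERG type pores known mainly from the nervous system, differed by -0.36 and 0.39 with limma adjusted p of 0.591 and 0.576.

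The inward rectifier current that holds the resting potential comes from Kcnj2 and Kcnj12. Kcnj2 had 9.05, 9.09, 8.83 and 9.41 in miR-100 hearts and 9.15, 9.15, 8.39 and 8.93 in wild type hearts. Kcnj12 had 9.45, 8.82, 9.29 and 9.29 in miR-100 hearts and 9.14, 9.44, 9.36 and 9.83 in wild type hearts. Both overlapped between groups, with differences of 0.19 (95% interval -0.23 to 0.61) and -0.23 (95% interval -0.63 to 0.17). Without wild type replicate 3 the difference of Kcnj2 was 0.02, and that of Kcnj12 was -0.10 without wild type replicate 4 or without miR-100 replicate 2. Of the remaining members of this type, Kcnj14 differed by -0.11 and Kcnj4 was among the dimmest rows, with a mean of 3.32.

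Kcnj3 and Kcnj5 form the channel that acetylcholine opens through G proteins, which is best known from atrium and sinoatrial node. Kcnj3 had 10.73, 10.94, 11.00 and 11.47 in miR-100 hearts and 11.20, 11.65, 11.24 and 11.81 in wild type hearts. In 3 of 4 miR-100 hearts it lay below all wild type values, while replicate 4 overlapped with them. The difference was -0.44 (SE 0.19, limma adjusted p = 0.620), and it was -0.59 without miR-100 replicate 4 and -0.33 without wild type replicate 4. Kcnj5 had 12.09, 12.02, 11.85 and 11.99 in miR-100 hearts and 12.11, 12.17, 12.18 and 12.09 in wild type hearts. Its spread was narrow and its difference -0.15 (95% interval -0.44 to 0.14, limma). Of 5 atrial markers 2 lay above the median level. Their summed signal ran from 9.87 to 10.8 in miR-100 hearts and from 10.1 to 10.2 in wild type hearts (log2). This sum, taken on the linear scale, follows mostly Stard10, the brightest of the 5, with a mean of 9.69. The defining atrial gene Myl7, the atrial myosin light chain, was dim at percentile 22.0, with 3.83 ± 0.48 in miR-100 and 4.23 ± 0.12 in wild type hearts (SD, n = 4 each). Its difference was -0.40, while Myl4 differed by -0.26, Sln by -0.01, Nr2f1 by 0.07 and Stard10 by 0.10, with a median of -0.01 over the 5. The part of atrial cells in the difference of Kcnj3 was not tested.

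The ATP-sensitive channel pairs a Kcnj11 pore with a sulfonylurea receptor, Abcc9 or Abcc8, in heart muscle. Kcnj11 had 10.03, 10.13, 9.28 and 8.41 in miR-100 hearts and 9.70, 9.77, 9.49 and 9.34 in wild type hearts. The miR-100 hearts were the more spread, with the 2 highest and the 2 lowest of the 8 values, and the SD was 0.80 against 0.20. The difference was -0.11 (95% interval -0.77 to 0.55, limma), and it turned to 0.24 without miR-100 replicate 4. Abcc8 had 9.35, 9.16, 8.68 and 8.13 in miR-100 hearts and 8.29, 8.59, 8.12 and 8.10 in wild type hearts. Within each group the mice fell in the same order for both genes, except that miR-100 replicates 1 and 2 changed places. Kcnj11 and Abcc8 are neighbours in the RefSeq gene order of GRCm38.p6. So are Kcnj8 and Abcc9, but for them the mice did not fall in the same order in either group. A link between gene position and the order of the mice was not tested. The difference of Abcc8 was 0.56 (SE 0.24, 95% interval 0.04 to 1.07, limma), while Abcc9 differed by 0.14.

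Kcnj8, the pore of the ATP-sensitive channel of vascular smooth muscle and pericytes, had 9.10, 9.24, 9.15 and 8.99 in miR-100 hearts and 9.43, 9.42, 9.54 and 9.34 in wild type hearts. All miR-100 values lay below all wild type values, and both groups were tight. The difference was -0.31 (SE 0.13, 95% interval -0.60 to -0.02, limma adjusted p = 0.609). Kcnmb1, the BK beta subunit of smooth muscle, averaged 7.98 ± 0.19 in miR-100 and 8.36 ± 0.36 in wild type hearts (SD, n = 4 each). Its difference of -0.38 did not pass (limma adjusted p = 0.683) and was -0.54 with wild type replicate 4 left out but -0.27 with replicate 1 of that group left out. Of 8 smooth muscle and pericyte markers 7 lay above the median level, with a median difference of 0.04. Their summed signal ran from 16.3 to 16.7 in miR-100 and from 16.2 to 16.5 in wild type hearts (log2). This sum was taken on the linear scale, so the brightest rows, Abcc9 (mean 15.5) and Rgs5 (mean 14.7), weigh most in it. Abcc9 also serves heart muscle, as given above. Acta2, smooth muscle actin, was the marker with the largest difference, at 1.11 (limma adjusted p = 0.203), and the pericyte gene Rgs5 differed by 0.03. Cspg4, Abcc9 and Cnn1 differed by 0.21, 0.14 and 0.055, while Tagln, Pdgfrb and Myh11 differed by -0.19, -0.135 and -0.06. The part of these cells in the values of Kcnj8 and Kcnmb1 was not tested.

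**Figure D4:**
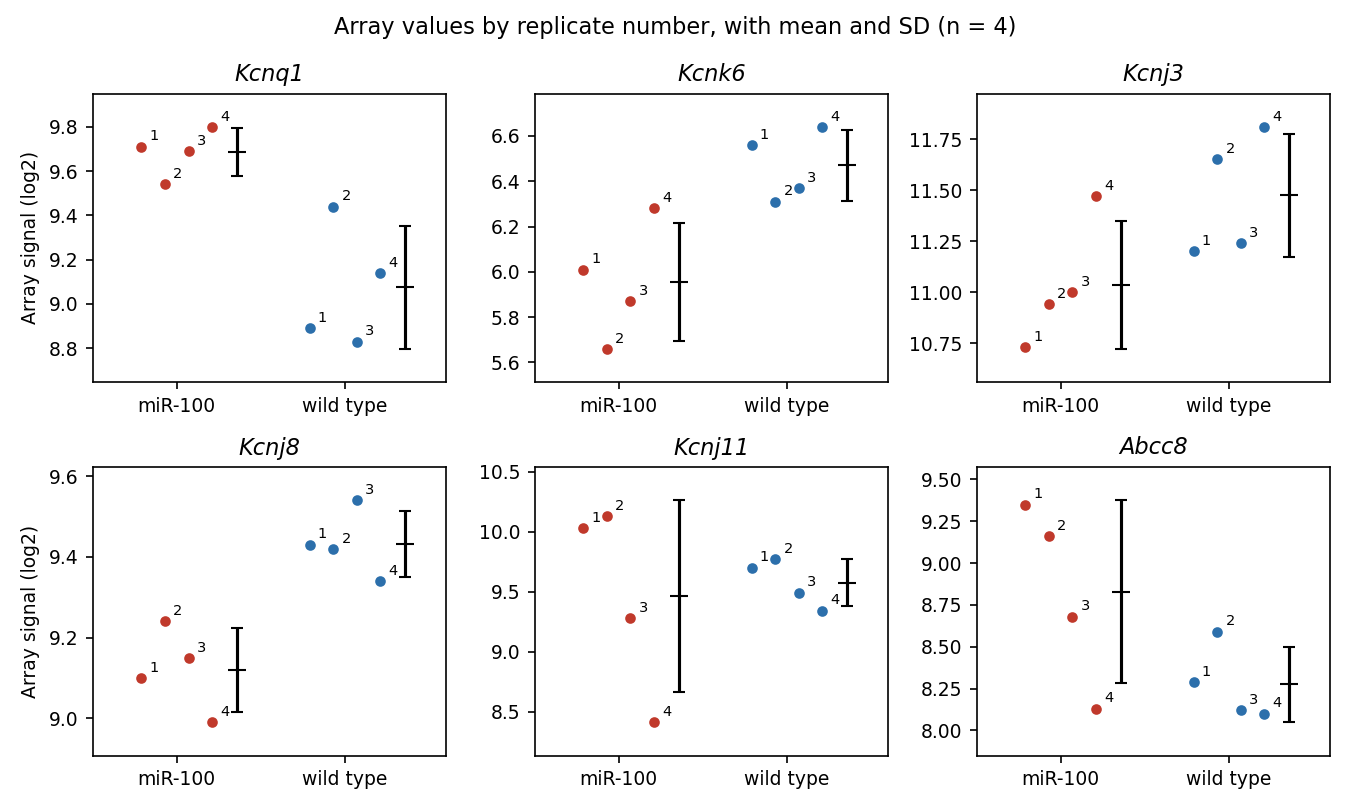
Array signal (log2) of 5 Kcn rows and of Abcc8 in each mouse, with replicate numbers beside the points, miR-100 overexpressing mice at the left and wild type mice at the right. Bars give the mean and SD (n = 4 each). Each panel has its own vertical scale, which does not start at 0. Kcnq1, Kcnk6 and Kcnj8 do not overlap between groups, and Kcnj11 and Abcc8 are lowest in replicate 4 of both groups.

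Two-pore-domain channels carry background potassium current. Kcnk3, an acid-sensitive member, had 10.06, 9.53, 9.79 and 9.53 in miR-100 hearts and 9.37, 9.64, 9.80 and 9.57 in wild type hearts, and the groups overlapped. Its difference was 0.13 (95% interval -0.22 to 0.49, limma), and it was 0.02 without miR-100 replicate 1 and 0.06 without replicate 1 of the wild type. Kcnk6, a weakly inward-rectifying member, had 6.01, 5.66, 5.87 and 6.28 in miR-100 hearts and 6.56, 6.31, 6.37 and 6.64 in wild type hearts. All miR-100 values lay below all wild type values, though miR-100 replicate 4 came close to wild type replicate 2. The difference was -0.52, the largest below 0 among the members (SE 0.16, 95% interval -0.87 to -0.16, unadjusted p = 0.00752, limma adjusted p = 0.380). It ran from -0.62 without miR-100 replicate 4 to -0.42 without miR-100 replicate 2, and was -0.57 without wild type replicate 2. Kcnk2, a stretch-sensitive member, was below the median at 5.07 with a difference of 0.00. Kcnk7, which forms no current on its own, was dim at 4.35 and differed by 0.29 without overlap (limma adjusted p = 0.638). The remaining 10 Kcnk rows had differences between -0.14 and 0.27.

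**Figure D5:**
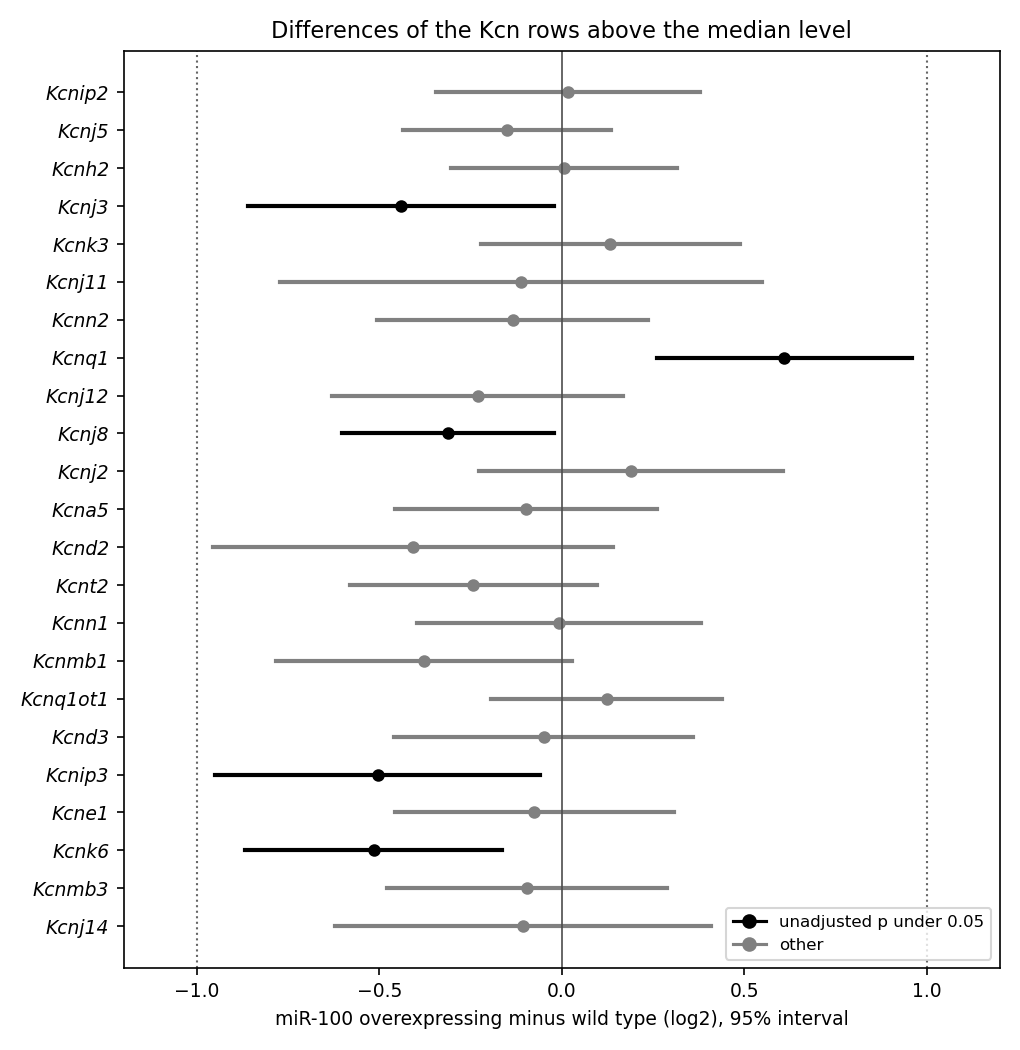
Difference between miR-100 overexpressing and wild type hearts (log2) with its 95% interval from limma for the 23 Kcn rows above the median level, ordered by row mean. Black marks the 5 rows with an unadjusted p under 0.05, and dotted lines mark -1 and 1. Kcnq1 lies to the right of 0, Kcnj3, Kcnj8, Kcnip3 and Kcnk6 to the left, and every interval ends inside the dotted lines.

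Among calcium- and sodium-activated channels, the SK pores Kcnn1 and Kcnn2, which calcium opens through calmodulin, lay above the median level. Kcnn2 averaged 9.44 ± 0.24 in miR-100 and 9.57 ± 0.24 in wild type hearts, and Kcnn1 averaged 8.47 ± 0.32 in miR-100 and 8.48 ± 0.20 in wild type hearts (SD, n = 4 each). Their differences were -0.14 and -0.01. Kcnn3 and Kcnn4 were dim. Kcnt2, a sodium-activated pore, differed by -0.24, and Kcnmb3, a BK beta subunit, by -0.10, with overlap in both. Without single arrays the differences ran from -0.24 to -0.04 for Kcnn2, from -0.34 to -0.17 for Kcnt2 and from -0.24 to -0.01 for Kcnmb3. Kcnip3, a calcium-binding protein of the Kcnip family that also acts as a transcriptional repressor, had 5.85, 5.89, 6.54 and 6.06 in miR-100 hearts and 6.32, 6.71, 6.28 and 7.05 in wild type hearts. In 3 of 4 miR-100 hearts it lay below all wild type values. Its difference was -0.51 (SE 0.21, limma adjusted p = 0.568) and ran from -0.66 without miR-100 replicate 3 to -0.35 without wild type replicate 4. Kcnb2 differed by -0.41 at a mean of 3.82 (limma adjusted p = 0.610). The 10 silent Kv rows differed by -0.37 to 0.24.

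Genes outside the Kcn names that serve these channels were measured alongside. Of 15 accessory proteins, among them the sulfonylurea receptors, the scaffold Dlg1 and the caveolar protein Cav3, 0 passed over all rows (limma, against 0.140% of all rows), and Abcc8 was the 1 with an unadjusted p under 0.05 (against 7.73% of all rows). Their median difference was 0.02. Of 10 genes of potassium transport outside channels 0 passed, with a median of 0.09. Stk39, a kinase that regulates cation-chloride cotransporters, was the 1 of these with an unadjusted p under 0.05 (against the same 7.73%), with a difference of 0.41 (limma adjusted p = 0.628).

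Of 18 transcription factors tied to ventricular potassium channel genes 0 passed over all rows, and 6 had an unadjusted p under 0.05 (limma, against 7.73% of all rows). Of those 3 were higher in miR-100 hearts and 3 lower. The list was chosen with earlier results of these data known, so this count is no test of the list. The clock genes Arntl, Clock and Nr1d1 differed by 1.02, 0.49 and 0.80, and Per2 by -0.89, each without overlap, which 4.54% of all rows showed (limma adjusted p between 0.106 and 0.306). Etv1, which acts in conduction tissue, and Tbx5, a cardiac T-box factor, differed by -0.44 and -0.44 without overlap (limma adjusted p = 0.404 and 0.425). Klf15, which drives the daily rhythm of Kcnip2 in mouse, had 8.93 ± 0.18 in miR-100 and 9.09 ± 0.48 in wild type hearts (SD, n = 4 each) and differed by -0.16. Irx5, a repressor of Kcnd2 in mouse ventricle, differed by -0.34 (limma adjusted p = 0.694). The median over the 18 was -0.07.

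Position and promoter composition were compared as features that the symbol rule did not use. In the RefSeq gene order of GRCm38.p6, 10 pairs of measured Kcn genes stood next to each other among protein-coding genes. In 0 of the 10 did both lie above the median level, and pairs such as Kcna5 with Kcna1 and Kcnj5 with Kcnj1 joined a row above it to a row below it. Only 25.6% of the Kcn rows lay above it and some pairs share a gene, so 10 pairs are too few to show a pattern. RefSeq promoter windows of 300 bases were found for 69 of the 90 members. Their median content of G and C was 59.3% for the 16 members above the median level that were found and 57.7% for the 53 below it, against 57.0% for all genes on the array. The letters CACGTG, an E-box that clock activators can bind and that reads the same on both strands, occurred in 5 of the 69 windows (7.25%, against 8.18% of all windows of genes on the array). Kcnj2 was the 1 member above the median level among them.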

How the data were processed

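Total RNA was labelled with the Affymetrix WT Plus kit, per the labels' protocols. The deposited values are log2 signals per array row, for which the authors used Transcriptome Analysis Console 4.0 according to the submitters' processing notes. Their normalization, summarization and genome build are not given in the sources used here. Values ran from 2.29 to 19.93. The platform annotation gave 19572 rows 1 symbol, 0 rows several and 2634 rows none, and all 90 Kcn members were found by Entrez number in a RefSeq table of GRCm38.p6. Some other potassium channel genes are not reported here.

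Groups were compared with limma 3.58.1 in R 4.3.3 (linear model, empirical Bayes, no covariates) over all 22206 rows, with Benjamini-Hochberg adjustment and a threshold of 0.05. The method was first tested on simulated data. Wild type means are subtracted from miR-100 means. Arrays are read as separate mice; p-values reflect the spread between these 8 samples alone, and their number limits precision. The members, lists and alternatives were chosen with earlier results of these data known. All Kcn rows above the median level are named, with the member next below it, rows below it with an unadjusted p under 0.05, and up to 4 partner genes per list by lowest p. Abcc9, Etv1, Tbx5, Klf15, Irx5, the markers and other rows below the median were named after their values were seen. Alternatives were quantile normalization, array weights, an intensity trend, robust moderation, centring on medians, keeping rows above percentile 25 or 50, keeping rows with a symbol, a replicate block, an adjusted threshold of 0.1 and leaving out each array.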

Additional observations from a re-analysis of the deposited data

Results flagged for a closer look

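In 3 of 80 groups of 4 arrays examined, 1 array lay far from the other 3 by Dixon's test, and chance alone flags about 1 in 20 groups. Kcna5 was 8.83 in miR-100 replicate 3, against 8.45 to 8.5 in the other miR-100 hearts. Kcnt2 was 8.34 in wild type replicate 2, against 8.72 to 8.78 in the other wild type hearts. Abcc9 was 15.23 in wild type replicate 1, against 15.51 to 15.56 in the other wild type hearts.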

How the results depend on the processing

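The count of Kcn rows past the adjusted threshold was 0 in each of the 17 alternative fits and at an adjusted threshold of 0.1, while the count over the whole table went to 65 with an intensity trend, 65 at the threshold of 0.1 and 11 to 27 without single arrays, from 31. The number of Kcn rows at an unadjusted p under 0.05, 11 in all, was 5 among rows above the 50th percentile, with 1 higher and 4 lower, where fewer members were tested. Without single arrays it ran from 4 (without miR-100 replicate 1) to 10, with 1 to 4 higher and 1 to 7 lower. With the replicate block it was 9, with 2 higher and 7 lower. Shares of all rows at this limit are not given for the alternative fits. The same-numbered arrays correlated in their deviations from the group means between -0.06 and 0.07, and differently numbered arrays did between -0.06 and 0.07 as well. Such deviations cannot show whether same-numbered mice shared a litter, which the sources used here do not give. The count of 23 rows above the median level was 22 without Kcnq1ot1, an alternative chosen after seeing the data, and 23 without each array.

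Of 29 members followed one by one, 22 kept their sign in every alternative run. Signs turned in 7, whose differences in the main fit lay between -0.11 (Kcnj11) and 0.02 (Kcnip2). Kcnh2 was -0.0192 with quantile normalization and ran from -0.0675 to 0.0625 without single arrays, and Kcnn1 was 0.00285 with array weights and ran from -0.11 to 0.13. Without single arrays Kcnip2 ran from -0.0842 to 0.17, Kcnj11 from -0.34 to 0.24, Kcnd3 from -0.19 to 0.075, Kcne1 from -0.18 to 0.025 and Kcnj14 from -0.33 to 0.08. The causes were not tested. Per2 and Arntl passed the threshold without wild type replicate 1 (limma adjusted p = 0.0387 and 0.0332) and Acta2 without miR-100 replicate 4 (0.0442).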
